A study of Mus musculus with 8 samples.

Results

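The 10 genes described here encode the contractile apparatus of smooth muscle cells and of myofibroblasts: Acta2, Tagln, Cnn1, Myh11, Myl9, Actg2, Des, Tpm1, Tpm2 and Lmod1. They were taken by gene name from the raw count table, where they are 10 of 55421 genes, and all 10 passed the filter on low counts. The RNA came from mouse spermatogonial stem cell cultures of C57BL/6XDBA/2 background (F1 hybrid in the study's methods), which had been established from neonatal testes and grown on irradiated embryonic fibroblast feeders of another, outbred stock. Adherent testis cells had been left behind on gelatin, and no later step that took the feeders out of the harvested cells is given in the sources used here. A library can therefore hold RNA of germ cells, of feeders and of any somatic cell that came along from the testis. The study asked how nutrient restriction together with retinoic acid starts meiosis, and it compared wild-type cultures with cultures of 2 knockouts. Those labelled STRA8KO lack the retinoic acid target Stra8, and those labelled SPO11KO lack the enzyme that makes meiotic DNA breaks. Both knockouts were grown as vehicle control (Veh) or under nutrient restriction medium plus retinoic acid (NRRA), with 2 libraries in each of the 4 groups. No wild-type culture was analysed here, so every comparison is within or between knockouts. NRRA changes the medium and adds retinoic acid in 1 step, and the part of each in a difference cannot be told apart.

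Smooth muscle contracts when thick filaments of myosin pull on actin filaments. Acta2 and Actg2 encode the smooth muscle actins, Myh11 the smooth muscle myosin heavy chain and Myl9 its regulatory light chain, while Tpm1 and Tpm2 encode tropomyosins that lie along the actin filament. Cnn1 (calponin) and Tagln (transgelin, SM22) bind actin, Lmod1 (leiomodin) starts new actin filaments, and Des (desmin) forms the intermediate filaments that hold the apparatus in place. Fibroblasts that become myofibroblasts, as they do in wounds and in stiff culture dishes, are recognised by Acta2 in stress fibres, and Myh11 and Des are used to tell mature smooth muscle from them. In the testis the peritubular myoid cells also express these genes. Serum response factor (SRF) drives many of them through the CArG box, and TEAD factors bind a motif called MCAT.

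Promoter sequences are shown for the members that moved most and least, since they are the places where those factors are known to act. The RefSeq promoter table (assembly GRCm38.p6, positions -250 to 50 from the start) held 7 of the 10 genes and left out Tagln, Myh11 and Actg2. For Myl9, Lmod1 and Des the 200 bases from position -250 to -51 are printed 5′ to 3′, and for Acta2 the 30 bases around each match, because GENCODE M21 draws its first Acta2 exon across that window. Capitals mark a CArG box, a CArG-like run (a CArG box with a single strong base in its inner weak stretch), or the MCAT motif CATTCC, here on the opposite strand.
Acta2 CArG-like, chr19:34255438-34255467, minus strand: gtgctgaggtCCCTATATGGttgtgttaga
Acta2 CArG-like, chr19:34255388-34255417, minus strand: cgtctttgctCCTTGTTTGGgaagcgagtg
Acta2 MCAT, chr19:34255502-34255531, minus strand: gagcagaacagaGGAATGcagtggaagaga
Myl9, chr2:156775214-156775413, plus strand: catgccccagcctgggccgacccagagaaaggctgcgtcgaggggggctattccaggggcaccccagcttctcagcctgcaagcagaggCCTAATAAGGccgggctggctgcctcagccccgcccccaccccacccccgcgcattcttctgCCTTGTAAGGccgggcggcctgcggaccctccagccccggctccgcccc
Lmod1, chr1:135324563-135324762, plus strand: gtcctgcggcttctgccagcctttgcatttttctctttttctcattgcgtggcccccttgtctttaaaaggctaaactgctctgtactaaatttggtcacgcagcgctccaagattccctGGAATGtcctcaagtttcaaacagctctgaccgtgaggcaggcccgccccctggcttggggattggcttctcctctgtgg
Des, chr1:75360042-75360241, plus strand: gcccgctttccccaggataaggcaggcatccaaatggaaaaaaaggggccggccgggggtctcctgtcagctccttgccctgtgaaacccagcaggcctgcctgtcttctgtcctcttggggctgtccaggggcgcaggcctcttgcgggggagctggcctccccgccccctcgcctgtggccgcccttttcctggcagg
Acta2 held 2 CArG-like runs, at -84 to -75 and at -34 to -25, and an MCAT motif. Myl9 held a CArG box at -161 to -152 and a CArG-like run at -99 to -90. Lmod1 held the MCAT motif alone, as did Tpm1, and Des, Cnn1 and Tpm2 held none of these. Searched on both strands, the CArG box was in 1 of the 7 members' promoters and in 1.63% of all 32851 promoters, the CArG-like run in 2 of 7 and 8.5%, and MCAT in 3 of 7 and 14.7%. AGGTCA, the half-site of nuclear receptors such as those for retinoic acid, was in 0 of 7 and 16.3%, and TATAAA in 0 of 7 and 13.6%. A match is a run of letters and not a measured binding site, and these 300 bases leave out the introns and distant elements.

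Depth was even, from 20960794 to 27038868 counts per library, and the 10 genes together took 0.0324% to 0.23% of them. Stra8 had 0 to 2 counts in the Stra8KO Veh libraries and 169 and 170 in Stra8KO NRRA, against 12604 and 16191 in Spo11KO NRRA. Spo11 counts were not lower in the libraries labelled Spo11KO (72 to 148) than in those labelled Stra8KO (31 to 68), so the gene's total does not check that label. The libraries of each group differed by more than sampling noise. The labels do not say whether they came from separately derived cultures, so the p-values measure the spread between these libraries, which may be technical. Of 16 fibroblast markers, 12 were called higher and 3 lower under NRRA in Stra8KO cultures, and 13 higher and 3 lower in Spo11KO cultures. The median rise was 0.72 on the log2 scale in both. Germ cell markers did not fall as a group under NRRA. Of these 8, 6 were called higher and 0 lower in Stra8KO cultures, with a median of 0.25. In Spo11KO cultures 6 were called higher and 1 lower, with a median of 0.17. Among all tested genes, 21.6% were called higher and 20.2% lower in Stra8KO cultures, and 24.5% and 25.5% in Spo11KO cultures. All 8 germ cell markers were lower in Stra8KO than in Spo11KO cultures in both media, and all 16 fibroblast markers were higher. In such mixed RNA, fewer cells of a type and less RNA per cell cannot be told apart, and a rise in CPM (counts scaled to library size) can come with either a larger feeder share or a higher level in the feeders. Each comparison is therefore given on 2 scales, by TMM over all genes and relative to the fibroblast markers.

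Under vehicle the tropomyosins and transgelin led the 10 genes, and under NRRA Acta2 did. Per kilobase of exon, Acta2 stood at 19.8 ± 1.83 CPM per kb (SD, n = 2) in Stra8KO Veh, behind Tpm1 at 55.5 ± 0.117, Tpm2 at 39.5 ± 0.822 and Tagln at 26 ± 1.14. In Stra8KO NRRA, Acta2 was first at 374 ± 11.9 CPM per kb, ahead of Tpm1 at 162 ± 0.654, and Tagln at 113 ± 1.66 and Myl9 at 112 ± 0.626 could not be ordered by their libraries. Spo11KO cultures went the same way, with Acta2 behind Tpm1, Tpm2, Tagln and Myl9 under Veh at 10.9 ± 0.266 CPM per kb and first under NRRA at 182 ± 6.23. Des, Cnn1, Actg2, Lmod1 and Myh11 stayed below 4 CPM per kb in every library. Myh11, the marker of mature smooth muscle, was last under NRRA in both cultures, at 0.81 ± 0.03 and 0.451 ± 0.0921 CPM per kb. Under Veh, Actg2 and Cnn1 overlapped in Stra8KO cultures, as did Myh11 and Lmod1, and Myh11, Lmod1 and Actg2 overlapped in neighbouring pairs in Spo11KO cultures.

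**Figure D1:**
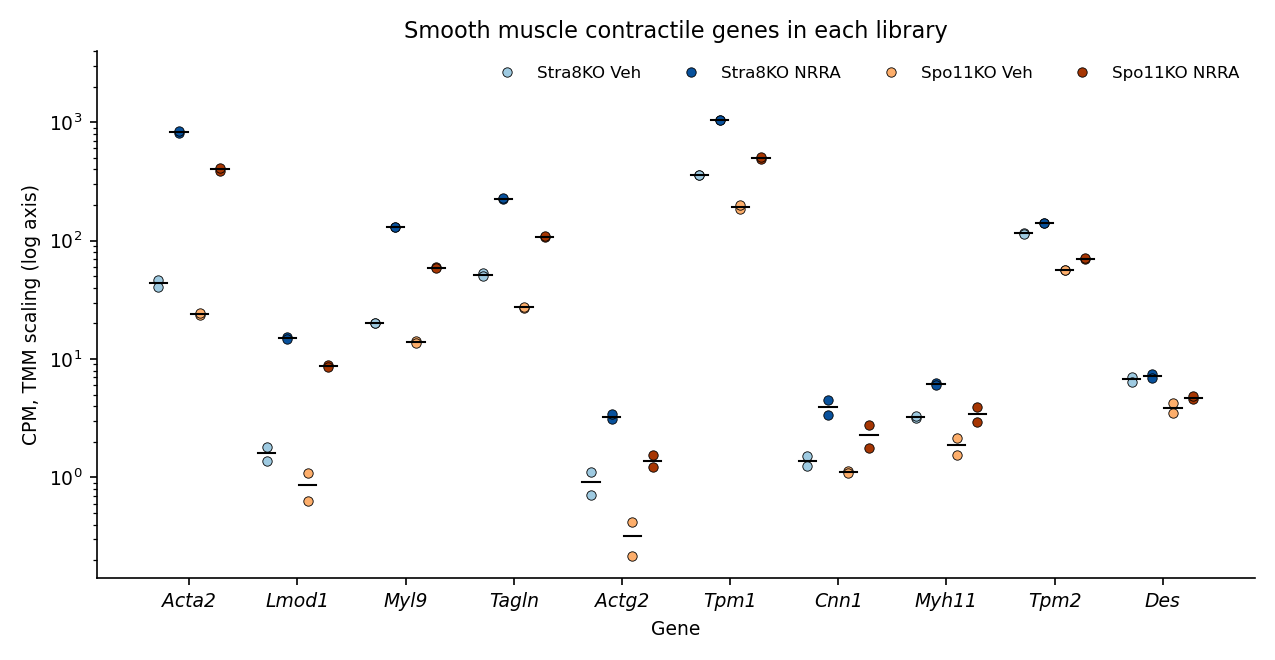
Normalised read counts of the 10 genes in each of the 8 libraries, as CPM with TMM scaling on a log axis; each point is a library and each bar the mean of the 2 libraries of a group. Acta2 goes from 40.7 and 46.4 CPM in Stra8KO Veh to 804 and 841 in Stra8KO NRRA, while Des stays between 3.49 and 7.42 CPM in all 8.

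NRRA raised 9 of the 10 genes in both cultures, Acta2 most and Tpm2 least, and Des did not pass the test in either. In Stra8KO cultures 9 genes were called higher, and the other, Des, gave a value above 0 that was not called, where 21.6% of the 20588 tested genes were called higher and 20.2% lower. In Spo11KO cultures it was the same 9 genes, against 24.5% higher and 25.5% lower. Scaling by total counts left the 9 in place, but over all genes in Spo11KO cultures it turned 5038 higher and 5242 lower calls into 6491 and 4034. The median log2 change of the 10 genes was 1.68 in both cultures, against 0.01 over all tested genes in each.

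Acta2, the actin that defines a myofibroblast, gave the largest response. In Stra8KO cultures its 2 Veh libraries held 1039 and 810 counts and its NRRA libraries 16675 and 18241. In Spo11KO cultures it went from 559 and 560 counts to 10100 and 11991. The NRRA libraries lay above the Veh libraries in both cultures without overlap. The log2 fold change was 4.24 (SE 0.0487, 95% CI 4.14 to 4.33, adjusted p = 1.86e-49) in Stra8KO and 4.06 (SE 0.0517, 95% CI 3.96 to 4.16, adjusted p = 1.86e-47) in Spo11KO cultures, or 18.8-fold and 16.7-fold. Among the 20588 tested genes, sorted by log2 fold change, Acta2 was number 51 and number 34. It lies at chr19:34241090-34255590 on the minus strand (GRCm38), and 0.326% of its 50-base words also occur in other genes such as Actg1.

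Lmod1, the filament nucleator, came second although its counts were low. Stra8KO Veh libraries held 31 and 36 counts of it and each Stra8KO NRRA library 319, with 15 and 25 against 231 and 251 in Spo11KO cultures. The groups did not overlap. Its log2 fold change was 3.24 (SE 0.175, adjusted p = 1.43e-21) and 3.34 (SE 0.205, adjusted p = 1.87e-19). Its gene is at chr1:135324807-135368065 on the plus strand.

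Myl9, the light chain whose phosphorylation starts contraction, rose from 20 and 20.1 CPM in Stra8KO Veh to 131 and 130 CPM in NRRA. In Spo11KO cultures it rose from 14.3 and 13.6 to 59.6 and 58.3 CPM. The log2 fold change was 2.7 (SE 0.0615, adjusted p = 3.68e-37) in Stra8KO and 2.07 (SE 0.0673, adjusted p = 1.18e-30) in Spo11KO cultures. The gene is at chr2:156775420-156781658 on the plus strand.

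Tagln rose from 53.2 and 50 CPM to 223 and 228 in Stra8KO cultures and from 27 and 27.6 to 107 and 109 in Spo11KO cultures. The log2 fold change was 2.12 (SE 0.0487, adjusted p = 4.79e-37) and 1.98 (SE 0.0537, adjusted p = 6.42e-34). Its gene (chr9:45929619-45936058, minus strand) shares exon positions with Pcsk7 and the antisense gene Gm48529 on the other strand. Gm48529 carried 96.6% to 98.9% as many counts as Tagln in every library, so reads of Tagln and Gm48529 cannot be told apart in this table. Pcsk7 did not share the pattern, with 41.9 ± 0.896 CPM in Stra8KO Veh and 35 ± 0.374 in Stra8KO NRRA.

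Tpm1 was the member with the most counts. It went from 8075 and 7151 to 21692 and 22814 counts in Stra8KO cultures and from 4426 and 4565 to 12650 and 14893 in Spo11KO cultures, a log2 fold change of 1.54 (SE 0.0372, adjusted p = 4.29e-36) and 1.37 (SE 0.038, adjusted p = 1.74e-33). Tpm2 moved far less, from 117 and 113 to 141 CPM in both NRRA libraries of Stra8KO cultures and from 56.9 and 56.2 to 69.6 and 71.1 CPM in Spo11KO cultures. Its log2 fold change was 0.29 (SE 0.0456, adjusted p = 4.02e-07) and 0.31 (SE 0.05, adjusted p = 5.45e-07). The 2 tropomyosin genes thus shared the direction and not the size, and since both make muscle and non-muscle isoforms from the same gene, a gene total does not say which isoform changed. Tpm1 lies at chr9:67022590-67049406 and Tpm2 at chr4:43514711-43523765, both on the minus strand.

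Actg2, Cnn1 and Myh11 rose from few counts, and their intervals are wide. Actg2 (chr6:83512905-83536265, minus strand) had 25 and 14 counts against 64 and 74 in Stra8KO cultures and 10 and 5 against 40 and 36 in Spo11KO cultures. The log2 fold change was 1.81 (95% CI 1.21 to 2.42) and 2.09 (95% CI 1.27 to 2.9). Cnn1 (chr9:22099216-22109630, plus strand) had 28 and 30 against 70 and 97 counts, and 27 and 25 against 72 and 52. Its log2 fold change of 1.51 (adjusted p = 3.16e-06) in Stra8KO and 1.02 (adjusted p = 0.00193) in Spo11KO cultures rested in the latter on 1 library: without Spo11KO NRRA replicate 1 it was 0.66 with adjusted p = 0.108. Myh11 (chr16:14194535-14291372, minus strand) had 71 and 66 against 131 and 130 counts, and 37 and 50 against 76 and 115. Its log2 fold change was 0.92 (adjusted p = 6.48e-05) and 0.89 (adjusted p = 0.000555).

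Des (chr1:75360329-75368579, plus strand) was the member that did not pass the test. Its counts were 159 and 126 under Veh and 154 and 150 under NRRA in Stra8KO cultures, and 83 and 98 against 119 and 142 in Spo11KO cultures. The libraries overlapped in Stra8KO cultures only. The log2 fold change was 0.09 (95% CI -0.21 to 0.39, adjusted p = 0.673) and 0.29 (95% CI -0.05 to 0.62, adjusted p = 0.155). The antisense gene Gm15179, which overlaps exon positions of Des on the other strand, had at most 1 count in any library.

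Set against the fibroblast markers, the 10 genes fell on both sides of 0. Here the libraries were scaled by the median ratio of the 16 fibroblast markers, 8 of them collagen genes, so a value above 0 is a rise beyond that of these markers. The rescaling moves all genes by about the same amount and cannot change their order. In Stra8KO cultures 7 genes were called higher and 2 lower, where 4.98% of all tested genes were called higher and 71% lower. In Spo11KO cultures 6 were called higher and 2 lower, against 5.34% and 69.6%. Acta2 was still 11.1-fold and 10.3-fold higher under NRRA, at 43.1 and 37 against 431 and 459 marker-scaled CPM in Stra8KO cultures and 41.9 and 44.4 against 439 and 452 in Spo11KO cultures. On this scale Lmod1 rose by 2.48 and 2.65, Myl9 by 1.94 and 1.38, Tagln by 1.36 and 1.29, Actg2 by 1.05 and 1.4 and Tpm1 by 0.78 and 0.68 (log2, Stra8KO then Spo11KO).

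The 4 other members stood lower on this scale. Cnn1 passed in Stra8KO cultures, at 0.75 (adjusted p = 0.00747), and gave 0.33 (adjusted p = 0.29) in Spo11KO cultures. Myh11 gave 0.16 (95% CI -0.23 to 0.54) and 0.19 (95% CI -0.25 to 0.64) and was not called. Tpm2 was called lower, at -0.47 and -0.38, and so was Des, at -0.67 and -0.41. Both directions of Tpm2 depend on the scale, since it was called higher by TMM and lower against the markers. The markers did not move as 1 block: Col3a1 rose by 1.78 and 1.68 by TMM while Col6a3 fell by 0.85 and 0.65, so a value near 0 on this scale has no fixed meaning. Some of these calls rest on single libraries: Des in Spo11KO cultures was not called without either of its NRRA libraries (adjusted p = 0.108 and 0.0759) or without Spo11KO Veh replicate 2 (-0.26, adjusted p = 0.302), Cnn1 in Stra8KO cultures was not called without Stra8KO Veh replicate 1 (adjusted p = 0.089) or Stra8KO NRRA replicate 2 (adjusted p = 0.169), and Actg2 was not called without Stra8KO Veh replicate 2 (adjusted p = 0.0577) or, in Spo11KO cultures, Spo11KO Veh replicate 2 (adjusted p = 0.065).

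**Figure D2:**
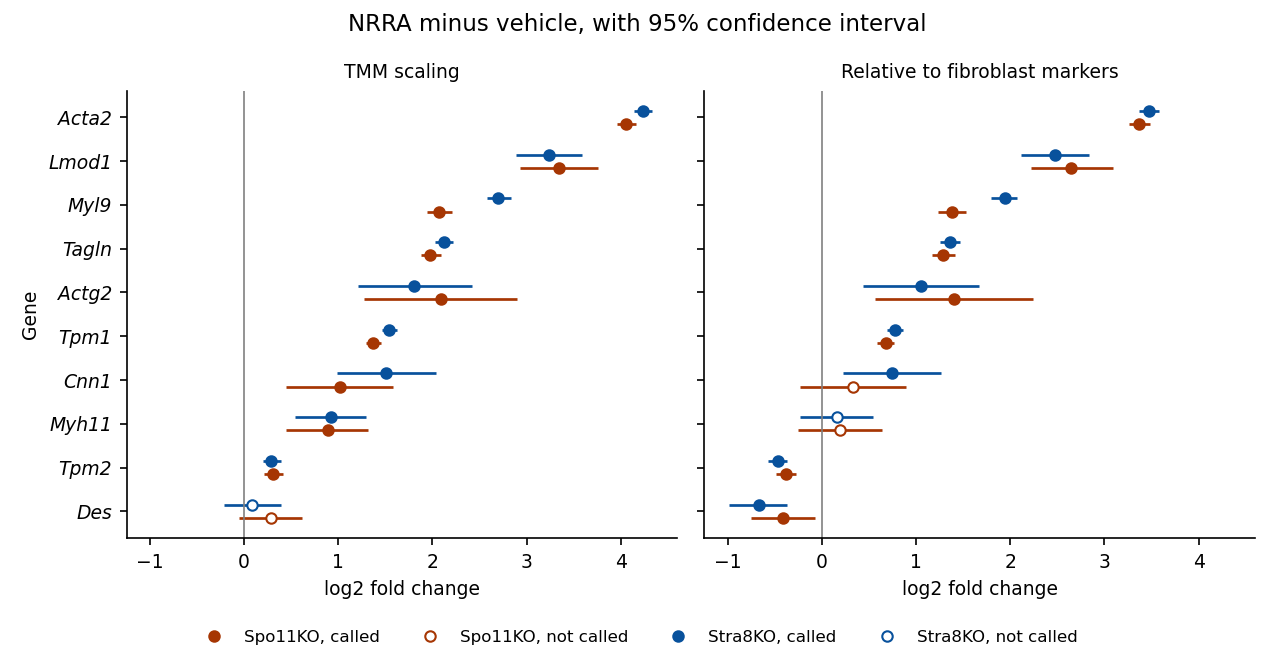
Log2 fold change of NRRA against vehicle for each gene with its 95% confidence interval, in Stra8KO (blue) and Spo11KO (brown) cultures, by TMM (left) and relative to the 16 fibroblast markers (right); filled points were called at an adjusted p under 0.05. Acta2 stays at 3.47 and 3.37 on the right, while Tpm2 and Des cross to the left of 0.

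Each gene was also set against relatives that nearly all cells express, within the same library, which needs no scaling between libraries. These ratios per kilobase have no test and are described. In mixed RNA they can still move with the share of each cell type. Acta2 went from 1.47% and 1.35% of the cytoplasmic actins Actb and Actg1 in Stra8KO Veh to 22.7% and 23.1% in NRRA, and from 1.03% and 1.04% to 18.1% and 17.9% in Spo11KO cultures. Tagln went from 22% and 21.5% of Tagln2 to 168% and 174%, and from 14.6% and 15.6% to 112% and 117%. Tagln passed its relative under NRRA in all 4 libraries. Tagln2 itself was called lower under NRRA, by 0.85 and 0.94 on the log2 TMM scale, and that fall is part of the shift. Tpm1 went from 24.1 ± 0.273% to 71 ± 1.33% of Tpm3 and Tpm4, and from 23.1 ± 0.087% to 59.3 ± 0.175%. Tpm2 stayed near its start, at 17.1 ± 0.127% and 21.3 ± 0.329% in Stra8KO cultures and 15.2 ± 0.867% and 18.7 ± 0.3% in Spo11KO cultures.

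Lmod1 went from 5.61 ± 1.09% to 53.6 ± 1.15% of Tmod3, a tropomodulin that caps actin filaments, and from 3.45 ± 1.07% to 35.5 ± 1.62%. Myl9 was already at 77.8 ± 1.77% and 67.4 ± 1.38% of Myl12a and Myl12b under Veh and reached 485 ± 30.2% and 316 ± 18.8% under NRRA. Myl12a and Myl12b are near-identical copies whose shared reads a counter may drop, so the percentage is uncertain and its change within a gene pair is the firmer part. Myh11 was 0.225 ± 0.0092% of Myh9 and Myh10 under Veh and 0.362 ± 0.0152% under NRRA in Stra8KO cultures, and 0.218 ± 0.044% and 0.357 ± 0.0661% in Spo11KO cultures. Des against vimentin (Vim) rose from 0.465 ± 0.024% to 0.876 ± 0.0471% and from 0.547 ± 0.0622% to 1.14 ± 0.0113%, while Vim was called lower by 0.82 and 0.77 on the log2 TMM scale. Cnn1 and Actg2 stayed under 1% of their relatives in every library.

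**Figure D3:**
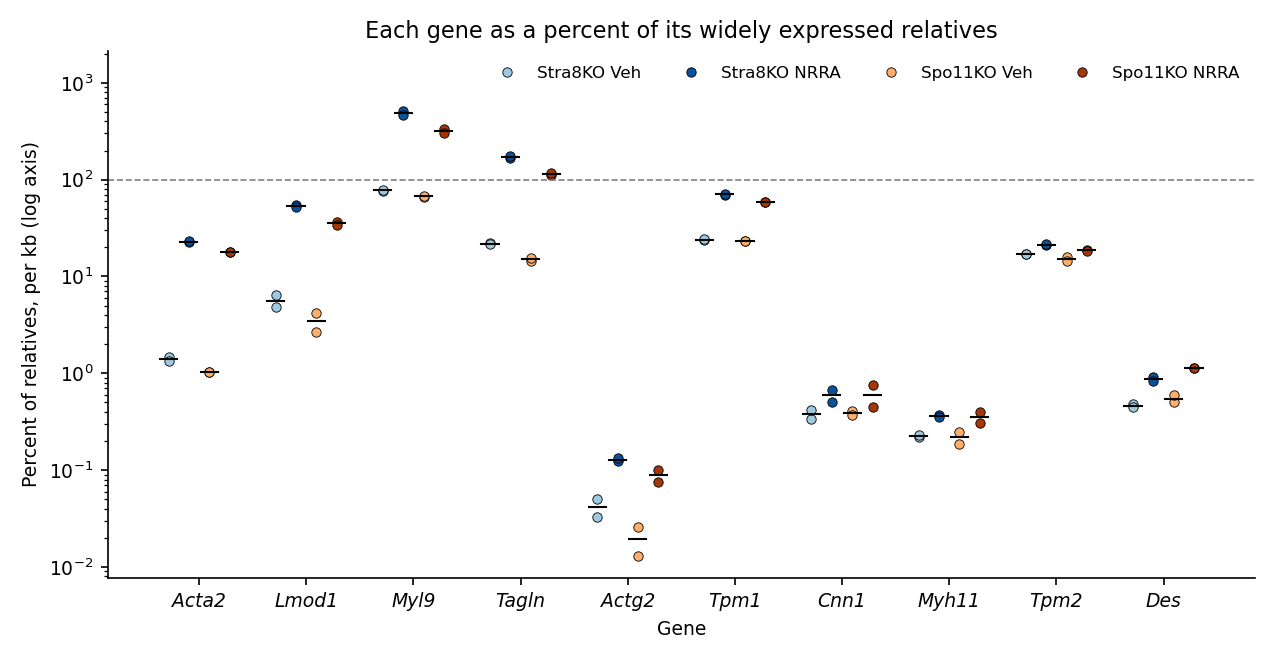
Counts per kilobase of each gene as a percent of its widely expressed relatives in the same library, on a log axis; points are libraries, bars the mean of the 2 libraries and the dashed line 100%. Acta2 moves from 1.35% to 1.47% up to 22.7% to 23.1% in Stra8KO cultures, and Tagln and Myl9 cross 100% under NRRA.

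Between the knockouts, the 10 genes stood higher in Stra8KO cultures on the TMM scale and mostly did not differ once set against the fibroblast markers. Under Veh 9 of 10 were called higher in Stra8KO, where 31.6% of all tested genes were, and under NRRA all 10 were, where 35% were. The log2 differences ran from 0.3 to 1.51 under Veh and from 0.6 to 1.24 under NRRA, with medians of 0.88 and 1.02 against 0 and 0.07 over all tested genes. The fibroblast markers had a median difference of 0.92 in both media, with 16 of 16 called higher each time. Acta2 was 43.6 ± 4.01 CPM in Stra8KO Veh and 23.9 ± 0.583 in Spo11KO Veh, a log2 difference of 0.87 (adjusted p = 1.27e-17), and 822 ± 26.2 against 399 ± 13.7 CPM under NRRA, a difference of 1.04 (adjusted p = 1.29e-27). Cnn1 under Veh was the exception, at 0.3 (adjusted p = 0.419). Scaling by total counts called as many members, while over all genes under NRRA 7214 higher and 5956 lower calls became 5349 and 8182, and the median of all genes moved by -0.11 under Veh and by -0.21 under NRRA. Under Veh the call of Myh11 was lost without Spo11KO Veh replicate 1 (0.57, adjusted p = 0.0672), that of Lmod1 without that library (0.54, adjusted p = 0.185) or Stra8KO Veh replicate 2 (0.69, adjusted p = 0.11), and that of Actg2 without Stra8KO Veh replicate 1 (1.12, adjusted p = 0.102) or Spo11KO Veh replicate 2 (1.12, adjusted p = 0.0646). Under NRRA that of Cnn1 was lost without Stra8KO NRRA replicate 2 (0.58, adjusted p = 0.0852) or Spo11KO NRRA replicate 2 (0.51, adjusted p = 0.0998).

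Relative to the fibroblast markers, 1 gene of 10 was called between the knockouts in each medium, and it was called lower. Under Veh it was Myl9, at -0.45 (95% CI -0.63 to -0.28, adjusted p = 1.54e-06), where 73.4% of all tested genes were called lower. Under NRRA it was Des, at -0.44 (95% CI -0.75 to -0.13, adjusted p = 0.00817), where 74.6% were. Acta2 differed by -0.11 (95% CI -0.23 to 0.02) under Veh and by 0 (95% CI -0.09 to 0.08) under NRRA. Tagln, Tpm1 and Tpm2 had intervals between -0.18 and 0.16 in both media. The intervals of Actg2, Cnn1, Lmod1 and Myh11 were wider, up to -0.39 to 1.48 for Actg2 under Veh. Cnn1 under Veh stood at -0.67 (95% CI -1.3 to -0.03) and was not called (adjusted p = 0.0527), though its libraries did not overlap. The call of Des was lost without Stra8KO NRRA replicate 2 (adjusted p = 0.0538) or Spo11KO NRRA replicate 2 (adjusted p = 0.0537), and without Spo11KO Veh replicate 1 Acta2 (-0.19) and Tpm1 (-0.17) were called lower under Veh as well. Acta2 was also called under Veh without Stra8KO Veh replicate 1 (-0.24), and Myl9 was called higher under NRRA (0.12) without Spo11KO Veh replicate 1 or replicate 2. Genotype and the culture in which it was carried cannot be told apart here.

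**Figure D4:**
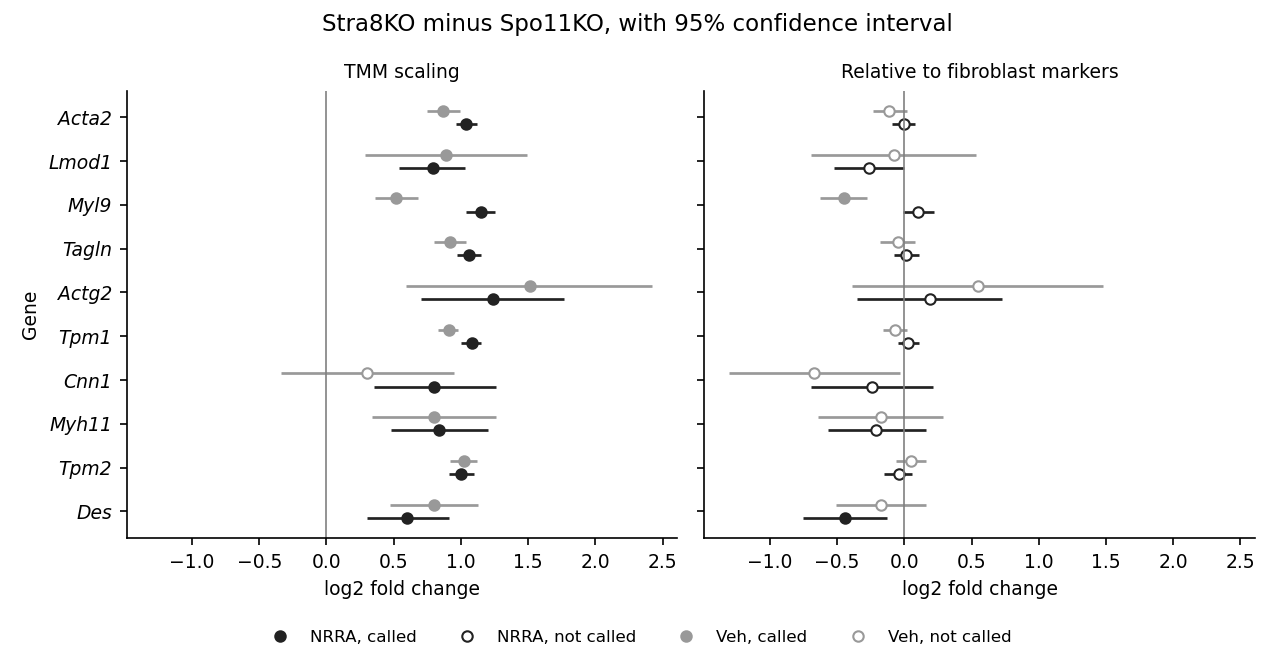
Log2 difference between Stra8KO and Spo11KO cultures for each gene with its 95% confidence interval, under vehicle (grey) and NRRA (black), by TMM (left) and relative to the 16 fibroblast markers (right); filled points were called. Points sit between 0.3 and 1.51 on the left and between -0.67 and 0.55 on the right, where Myl9 under vehicle and Des under NRRA were called.

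The NRRA response itself differed between the knockouts for Myl9. The interaction, which subtracts the Spo11KO response to NRRA from the Stra8KO response, was 0.63 for Myl9 (SE 0.0962, 95% CI 0.43 to 0.82, adjusted p = 8.75e-07) by TMM and 0.56 (SE 0.106, adjusted p = 7.65e-06) relative to the fibroblast markers. Tpm1 was called by TMM, at 0.17 (SE 0.0525, adjusted p = 0.0122), and not relative to the markers, at 0.1 (adjusted p = 0.247). By TMM 2 of 10 members were called, where 25.1% of all tested genes were, and relative to the markers 1 of 10, where 25.4% were. The call of Tpm1 was also lost with DESeq2 size factors (0.14, adjusted p = 0.0555), total counts (0.08, adjusted p = 0.279) and without Stra8KO Veh replicate 1 (adjusted p = 0.0569), Stra8KO Veh replicate 2 (adjusted p = 0.0586), Spo11KO Veh replicate 2 (0.12, adjusted p = 0.118) or Spo11KO NRRA replicate 1 (adjusted p = 0.0765). Relative to the markers it was called without Spo11KO Veh replicate 1 (0.22). Total counts also turned 3052 higher and 2122 lower calls over all genes into 2188 and 3472. The interaction of Acta2 was 0.18 (95% CI 0.03 to 0.32, adjusted p = 0.0712), and it was called in 3 of the 8 fits that left out a library, those without Stra8KO Veh replicate 1 (0.27), Stra8KO NRRA replicate 1 (0.21) or Spo11KO NRRA replicate 2 (0.22). Relative to the markers it was called without Stra8KO Veh replicate 1 (0.25). For Lmod1 (-0.1), Actg2 (-0.27), Cnn1 (0.5) and Myh11 (0.04) the intervals spanned 0.

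In RNA level by TMM, the known regulators of these genes changed less than Acta2 did, and the activity of their proteins was not measured. Of 16 listed regulators 15 were tested, and 9 were called higher and 4 lower under NRRA in each culture. The median was 0.26 in Stra8KO and 0.36 in Spo11KO cultures. Among all tested genes by TMM, 21.6% were called higher and 20.2% lower in Stra8KO cultures, and 24.5% and 25.5% in Spo11KO cultures. The actin-binding LIM protein gene Csrp1 rose most, by 1.26 (adjusted p = 2.93e-28) and 1.08 (adjusted p = 9.06e-25). Srf, the CArG box factor, changed by 0.13 (adjusted p = 0.0489) in Stra8KO and by -0.61 (adjusted p = 6.83e-14) in Spo11KO cultures, and this difference passed the interaction test (0.74, adjusted p = 5.77e-11). Its mean level was 67.9 and 74.5 CPM in Stra8KO and 88.4 and 58.1 CPM in Spo11KO cultures, Veh then NRRA. Its cofactor genes went opposite ways, with Mrtfa at -0.18 and -0.11 and Mrtfb at 0.26 and 0.52. Myocd, which encodes the cofactor restricted to cardiac and smooth muscle, had 0 to 6 counts in every library and was not tested.

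Among the TEAD genes, Tead1 (0.52 and 0.17) and Tead3 (0.41 and 0.5) rose, Tead4 fell by 0.67 in both cultures, and Tead2 was called in Spo11KO cultures (-0.24). Klf4, which represses smooth muscle genes, rose by 0.66 in each. Klf5 fell by 0.74 in Stra8KO cultures and rose by 0.93 in Spo11KO cultures (interaction -1.67, adjusted p = 4.76e-12). Fhl1 rose by 1.14 and 0.36, Fhl2 by 0.58 and 0.57 and Gata6 by 0.62 and 0.47, while Csrp2 fell by 0.59 in Stra8KO cultures and gave 0.07 in Spo11KO cultures. Mef2c gave 0.03 and 0.2 and was not called. Relative to the fibroblast markers 2 of the 15 were called higher and 11 lower in Stra8KO cultures. Over all tested genes 4.98% were called higher and 71% lower there. In Spo11KO cultures 1 was called higher and 10 lower, against 5.34% and 69.6%. The lower calls thus lay near the share of all genes.

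Other parts of the contractile apparatus followed only in some genes. Of 22 listed genes 13 were called higher and 4 lower in Stra8KO cultures, where 21.6% of all tested genes were higher and 20.2% lower. In Spo11KO cultures 13 were called higher and 5 lower, against 24.5% and 25.5%. The medians were 0.3 and 0.2. Synpo2, which encodes an actin-bundling protein of muscle, rose by 2.69 and 2.61. Mylk, the kinase that phosphorylates the Myl9 product, rose by 1.22 and 1.4, and Ppp1r12b, a subunit of the opposing phosphatase, rose by 1.41 and 0.81 (interaction 0.59, adjusted p = 2.3e-07). Hspb6 fell by 1 and 1.04, and Smtn, which encodes smoothelin of contractile smooth muscle, fell by 0.43 and 0.23. Rhoa, the small GTPase upstream of contraction, fell by 0.4 and 0.36.

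Genes of the TGF-beta pathway, the best known inducer of myofibroblasts, moved in both directions. Of 20, 9 were called higher and 8 lower in Stra8KO cultures, where 21.6% of all tested genes were higher and 20.2% lower. In Spo11KO cultures 7 were called higher and 11 lower, against 24.5% and 25.5%. The medians were 0.06 and -0.14. The ligands split: Tgfb2 rose from 11.2 ± 0.737 to 76.8 ± 3.79 CPM in Stra8KO and from 4.97 ± 0.538 to 33.5 ± 2 CPM in Spo11KO cultures, while Tgfb1 fell from 142 ± 6.39 to 65.1 ± 1.63 and from 89.8 ± 2.16 to 38.5 ± 0.257 CPM. Of the pathway's known targets, Ccn2 rose by 1.89 and 1.94 and Tgfbi fell by 1.54 and 1.88. Smad7, an inhibitor that the pathway induces, fell by 0.57 and 1.3 (interaction 0.73, adjusted p = 3.48e-09). Among 9 genes associated with myofibroblasts, 7 were called higher and 2 lower in each culture, beside the same shares of all tested genes. Their medians were 0.51 and 0.6. Fap, a surface protease of activated fibroblasts, rose by 3.75 and 3.33, and the collagen receptor gene Itga11 by 2.72 and 2.25. The matrix genes Tnc and Fn1 fell, by 1.53 and 1.32 and by 0.42 and 0.38. Relative to the fibroblast markers 4 of the 9 were called higher in each culture, with 5 lower in Stra8KO and 4 lower in Spo11KO cultures. Over all tested genes on that scale 4.98% and 5.34% were called higher and 71% and 69.6% lower, Stra8KO then Spo11KO.

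**Figure D5:**
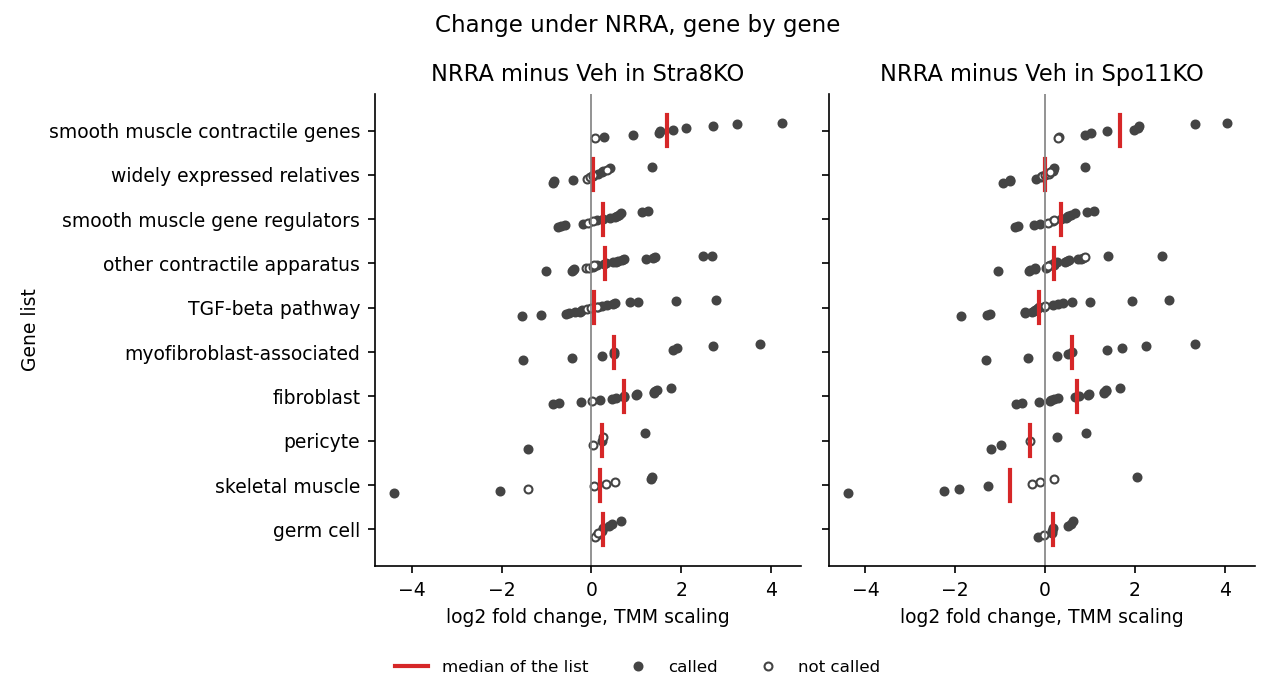
Log2 fold change of NRRA against vehicle (TMM) for every tested gene of 10 lists, in Stra8KO (left) and Spo11KO (right) cultures; filled points were called at an adjusted p under 0.05, open points were not, and red bars are list medians. The median of the contractile genes is 1.68 in both panels, and those of the other lists lie between -0.78 and 0.72.

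Markers of other cells that hold these proteins were checked, and what part they had in the results was not tested. The skeletal muscle regulators Myod1, Myf5 and Myf6 and the fast light chain Myl1 had at most 3 counts in all 8 libraries, and so had the cardiac actin Actc1. The summed level of 14 skeletal muscle markers was 33.9 to 35.5 CPM in Stra8KO Veh and 17.8 to 19.9 in Stra8KO NRRA, and 31.9 to 33.4 against 21.7 to 22.1 CPM in Spo11KO cultures. Its members moved both ways. Chrna1, the muscle acetylcholine receptor subunit, fell by 4.39 and 4.38, from 21.4 ± 1.05 to 1.01 ± 0.468 CPM in Stra8KO cultures. There the satellite cell marker Pax7 rose by 1.35 and the cadherin gene Cdh15 by 1.33, while in Spo11KO cultures Pax7 fell by 2.26 and Cdh15 gave 0.21 (adjusted p = 0.0915). Of the 8 skeletal muscle markers tested, the other calls, named after their values were seen, were the skeletal actin gene Acta1 (-2.03 and -1.91) and, in Spo11KO cultures, Myog (-1.27) and Tnnt3 (2.04). The 8 cardiac markers summed to 15.8 to 18.3 against 17 to 19 CPM in Stra8KO and 30.6 to 31.9 against 35.5 to 36.6 CPM in Spo11KO cultures. The 7 pericyte markers summed to 440 to 447 against 437 to 441 CPM and to 553 to 585 against 310 to 321 CPM. Mcam held most of the pericyte sum in Spo11KO cultures, where it fell from 455 ± 17.7 to 198 ± 8.91 CPM (-1.2, adjusted p = 1.89e-30), while in Stra8KO cultures it gave 0.03 (adjusted p = 0.552; interaction 1.24, adjusted p = 1.68e-23). Cspg4 fell by 1.41 and 0.99, and Notch3 rose by 0.23 and 0.26. Rgs5 rose by 0.91 in Spo11KO cultures and gave 0.27 (adjusted p = 0.401) in Stra8KO cultures. There Abcc9, named after its value was seen, was called higher (1.2, adjusted p = 0.00705). Of the 5 pericyte markers tested, 2 were called higher and 1 lower in Stra8KO cultures, and 2 higher and 2 lower in Spo11KO cultures. Among all tested genes, 21.6% were called higher and 20.2% lower in Stra8KO cultures, and 24.5% and 25.5% in Spo11KO cultures. Markers of Sertoli cells summed to at most 51.4 CPM, of endothelium to 14.4, of Leydig cells to 8.58 and of macrophages to 61.8 CPM in any library. The fibroblast markers summed to 9930 to 38800 CPM. Peritubular myoid cells have no list of their own here, since Acta2 and Myh11 are their usual markers, so feeders and any myoid cells cannot be told apart.

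Across the 8 libraries, Acta2 and the pair of Des and Tpm2 marked the ends of the range of patterns, and Myh11 lay between them. In Pearson correlation the log2 CPM of Acta2 went with those of Lmod1 and Myl9 (r = 0.99 each) and Tagln (0.98) and less with those of Des (0.46) and Tpm2 (0.49), while Des and Tpm2 went together (0.97) and Myh11 gave 0.84 with Acta2 and 0.83 with Des. These are descriptions over 8 libraries in 4 groups and share the scaling of each library. Of the other genes, 10769 passed the level set for this search, and those most like Acta2 were C1qtnf3 (r = 0.999), Fap, Rarb, Prss23 and the antisense Prss23os (0.998 each). Rarb, a retinoic acid receptor gene that retinoic acid itself induces, changed by 5.46 and 5.6, and C1qtnf3 by 4.26 and 4.03. The genes most like Myh11 were Anks1b (r = 0.989), Ttc17, Tfpi and Pdzrn3 (0.988 each) and Ifih1 (0.986), and those most like Des were Map4k5 (0.992), Tvp23b (0.991), Chd1 (0.99), Meis1 and Kidins220 (0.989 each).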

How the data were processed

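RNA was sequenced from spermatogonial cultures of 2 knockouts under vehicle or NRRA, 8 libraries in all. Per the labels and methods, the authors aligned reads to mm10 with STAR (2.6.1c) and deposited raw counts per gene from featureCounts (1.6.4); the annotation release and strand setting are not given in the sources used here. Counts were fitted in edgeR 4.0.16 (R 4.3.3) with TMM scaling, filterByExpr (20588 genes kept) and the robust quasi-likelihood F test, two-sided, over all 8 libraries. P-values were adjusted by Benjamini-Hochberg over all tested genes and called under 0.05. A second fit scaled libraries by the median ratio of 16 fibroblast markers. Positions and exon lengths came from GENCODE M21 (GRCm38), which held 99.52% of the identifiers. DESeq2 1.42.0 was an alternative. The script was tested on simulated data for NRRA against Veh in Stra8KO: of 100 genes changed by 1 log2 unit 95% were recovered, and of 100 changed by 0.5, 68%. Those genes were drawn from outside the members and lists and above a minimum mean count, with the same spread for all genes. The rates are therefore not those of the members. Named were the 10 members, Stra8, Spo11, all regulators, up to 2 called genes per direction of each other list and comparison (mean log2 CPM from 1), and the 5 genes most correlated with Acta2, Myh11 and Des (mean log2 CPM from 3). Members and lists were chosen with earlier results of these data known. Counting error limits genes under 100 counts.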

Additional observations from a re-analysis of the deposited data

Results flagged for a closer look

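The NRRA effect differed between the knockouts for 2 of the 10 genes by a test of the difference itself, where 25.1% of all tested genes were called. Relative to the fibroblast markers 1 of 10 was called, where 25.4% were. For Myl9 the effect was larger in Stra8KO cultures by 0.63 on the log2 scale (2.7 against 2.07, adjusted p = 8.75e-07, edgeR), and it was called in every alternative run, from 0.49 to 0.66, except where a change of at least 2-fold was also asked. For Tpm1 it was larger by 0.17 (1.54 against 1.37, adjusted p = 0.0122), and it was not called with DESeq2 size factors, total counts, no filter, the DESeq2 test or relative to the fibroblast markers. Groups of 2 libraries are too small for a test of single outlying libraries.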

How the results depend on the processing

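The 9 rises under NRRA and the 9 and 10 higher calls in Stra8KO cultures held under DESeq2 size factors, total counts, other filters, the DESeq2 test and an adjusted p under 0.01, each within 1.5 times. The replicate numbers did not clearly pair the libraries. Between media, same-numbered deviations correlated at 0.03 in Stra8KO cultures and at 0.22, a weak positive value, in Spo11KO cultures. Between knockouts they correlated at 0 under Veh and -0.09 under NRRA. With the replicate block the members called stayed at 9, 9, 9, 10 and 2. The interaction count fell from 2 to 1 with DESeq2 size factors, total counts, no filter, the DESeq2 Wald test or an adjusted p under 0.01. Asking also for a 2-fold change left 2 members between knockouts under Veh, 6 between knockouts under NRRA and 0 for the interaction by TMM. Of the 9 rises by NRRA, those of Myh11 (0.92 and 0.89) and Tpm2 (0.29 and 0.31) did not reach 2-fold in either culture. Relative to the fibroblast markers the same request left 5 and 5 for NRRA against vehicle and 0, 0 and 0 for the others. Summing the marker counts in place of their median ratio called 2 members between knockouts under Veh and 3 under NRRA and ended the call of Cnn1 in Stra8KO cultures (0.45, adjusted p = 0.106). It turned the sign of Myh11 under NRRA (-0.14 and -0.11), of Tagln (0.04), Tpm1 (0.03) and Lmod1 (0.01) between knockouts under Veh, and of Acta2 (0.1) and Tpm2 (0.06) under NRRA. The Myh11 interaction became -0.06 with total counts and -0.03 with no filter. Leaving out 1 library at a time, where an arm's lone library is assumed to vary like the other groups, moved the interaction count from 1 to 3 (relative to the markers 1 to 2) and the marker-scaled count between knockouts from 1 to 3 under Veh and from 0 to 2 under NRRA. The ranges that crossed 0 were, for the interaction, Actg2 -0.82 to 0.12, Lmod1 -0.54 to 0.24, Myh11 -0.22 to 0.27 and Tpm2 -0.04 to 0, and on the marker scale Actg2 -0.83 to 0.08, Lmod1 -0.58 to 0.24 and Myh11 -0.26 to 0.26. For NRRA in Spo11KO cultures on the marker scale they were Cnn1 -0.01 to 0.66 and Myh11 -0.06 to 0.45. Between knockouts on that scale they were, under Veh, Lmod1 -0.49 to 0.33, Myh11 -0.46 to 0.06 and Tpm2 0 to 0.08, and under NRRA Acta2 -0.05 to 0.04, Cnn1 -0.56 to 0.12, Myh11 -0.38 to 0.01 and Tagln -0.01 to 0.04. The cause of these shifts was not tested. Depth limits Actg2, Cnn1, Myh11 and Lmod1, whose Veh libraries held 5 to 71 counts.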
